A study of Drosophila melanogaster with 6 samples.

Results

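Mitochondria carry a small circular genome of their own, and the genes described here are the 6 protein-coding genes of that genome that encode subunits of cytochrome complexes and of ATP synthase: mt:CoI, mt:CoII, mt:CoIII, mt:Cyt-b, mt:ATPase6 and mt:ATPase8. They were taken by name, as every gene whose symbol begins with mt:Co, mt:Cyt or mt:ATPase, and make up 6 of the 14240 genes in the deposited table. Each is represented there by a single transcript. The abundance of newly made RNA in carcasses of early L3 Drosophila melanogaster larvae was measured by RNA tagging in 6 libraries, 2 biological replicates of each of 3 sample types. 5EC-tagged RNA (EC-RNA) came from larvae of genotype 109(2)80-Gal4 with UAS-CD:UPRT that were fed 5EC, a modified cytosine, and the labels give its tissue as md neurons, the multidendritic sensory neurons of the body wall. CD:UPRT is an enzyme fusion that lets a cell turn 5EC into a tagged RNA building block. 5EUd-tagged RNA (ref-RNA) came from UAS-CD:UPRT larvae without Gal4 that were fed 5EUd, a modified uridine that cells can use without CD:UPRT, and stands for all carcass cells. Mock-tagged RNA (mock-RNA) came from UAS-CD:UPRT larvae fed neither analog and measures what the purification captured without a tag. All larvae carried UAS-CD:UPRT, were kept at 25C, and were on the analog for 12 hours in the tagged samples. Carcasses were pooled, the central nervous system was dissected away because the driver is also active there, and the RNA was biotinylated and captured on streptavidin. EC-RNA and ref-RNA differed in genotype, analog and labelled cells at once, so these cannot be told apart, and no EC-fed larvae without Gal4 were analysed here.

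The mitochondrial inner membrane holds the respiratory chain, which passes electrons from NADH and succinate to oxygen and pumps protons as it does so. Complex III takes electrons from ubiquinol to cytochrome c, complex IV (cytochrome c oxidase) passes them on to oxygen, and complex V (ATP synthase) uses the returning protons to make ATP. Each of these complexes is built from a few subunits encoded in the mitochondrial genome and a larger number encoded in the nucleus. The mitochondrial genes are transcribed inside the organelle by their own RNA polymerase as long precursors on both strands, and many of the messages are freed by removal of the tRNAs that lie between them.

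On the annotation used here (BDGP6.54, Ensembl release 115), all 6 genes lay on the + strand of the mitochondrial chromosome M, on which 9 of the 13 mitochondrial protein genes were on the + strand and 4 on the − strand. mt:CoI (FBgn0013674), which encodes the catalytic subunit of complex IV, covered positions 1474 to 3009. mt:CoII (FBgn0013675), the complex IV subunit that receives electrons from cytochrome c, covered 3083 to 3767 and was separated from mt:CoI by mt:tRNA:Leu-TAA. The tRNA genes for Lys and Asp followed, and then mt:ATPase8 (FBgn0013673) at 3907 to 4068 and mt:ATPase6 (FBgn0013672) at 4062 to 4736, both membrane subunits of complex V. mt:ATPase6 shared 7 bases with mt:ATPase8 and 1 base with mt:CoIII (FBgn0013676), the third mitochondrial subunit of complex IV, at 4736 to 5524. No tRNA gene lay between these 3 genes. mt:Cyt-b (FBgn0013678), the cytochrome b of complex III, lay apart from the others at 10499 to 11635, starting 3 bases after the end of mt:ND6. The lengths ran from 162 bases for mt:ATPase8 to 1536 bases for mt:CoI, against a median of 2132 bases over the 30593 transcripts of the table with an annotated length. Only 20 of those transcripts (0.065%) were as short as mt:ATPase8 or shorter.

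Values are TPM, in which an abundance is divided by transcript length and scaled to the library total. The scale is meant to let levels be compared between genes. The table left a transcript without a value blank, and blanks were read as 0. The number of transcripts above 0 was 6701 and 7335 in EC-RNA, 16100 and 17205 in ref-RNA, and 3075 and 2441 in mock-RNA. TPM keeps no read number, so the depth of each value cannot be read from the table, and the study's read totals, which were largest for ref-RNA and smallest for mock-RNA, are not used here. The spread between replicates stands in for the error of a value. The part of depth in the blanks and in the gaps between replicates was not tested. The 6 genes took 27.7% and 20.1% of all TPM in EC-RNA, 16.8% and 17.1% in ref-RNA, and 3.81% and 0.25% in mock-RNA. Because TPM sums to a fixed total, a share of this size bears on every other value in a library. The md neuron markers differed between the EC-RNA libraries. Of 6 such genes, 3 and 2 were blank in EC-RNA, and their summed level was 1.54 and 105 TPM in EC-RNA, 119 and 103 TPM in ref-RNA and 5.17 and 12.6 TPM in mock-RNA. Both EC-RNA values lay below both ref-RNA values for 3 of the 6 and above for 0, against 69.1% below and 3.16% above over all genes tested. Of those below, ppk was at 0 and 0.0910 TPM in EC-RNA against 6.79 and 4.80 TPM in ref-RNA. The other 3 overlapped, with Piezo at 0.806 and 55.9 TPM in EC-RNA against 58.4 and 55.4 TPM in ref-RNA. Summed general neuron markers, of which 0 and 1 of 5 were blank in EC-RNA, had 34.7 and 356 TPM in EC-RNA, 91.0 and 77.6 TPM in ref-RNA and 193 and 142 TPM in mock-RNA. Summed markers of muscle, a tissue rich in mitochondria, reached 26430 and 25285 TPM in EC-RNA, 54163 and 49414 TPM in ref-RNA and 15398 and 34391 TPM in mock-RNA. All 6 genes were lower in both EC-RNA libraries than in both ref-RNA libraries, as were 69.1% of all genes tested, and none was blank. Summed cuticle genes of the epidermis had 25847 and 38936 TPM in EC-RNA, 17092 and 14082 TPM in ref-RNA and 4178 and 146500 TPM in mock-RNA. Of these 5 genes, 3 lay above ref-RNA in both EC-RNA libraries and 0 below, against 3.16% and 69.1% of all genes tested. TwdlT was blank throughout. Summed fat body genes had 7978 and 11954 TPM in EC-RNA, 10372 and 37588 TPM in ref-RNA and 43.5 and 255 TPM in mock-RNA. The part of these cell types in the results that follow was not tested, and fewer cells of a type cannot be told apart from less tagged RNA per cell.

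Complex IV held the most abundant message of the tagged libraries. mt:CoIII had 136250 and 90797 TPM in EC-RNA, 65451 and 68040 TPM in ref-RNA, and 591 and 1143 TPM in mock-RNA. It ranked first among all genes in both EC-RNA and both ref-RNA libraries, and its EC-RNA values both lay above its ref-RNA values. mt:CoI had 61362 and 47446 TPM in EC-RNA, 50342 and 48505 TPM in ref-RNA, and 600 and 741 TPM in mock-RNA. The EC-RNA values of mt:CoI lay on either side of the ref-RNA values, so these groups overlapped. mt:CoII had 23740 and 11396 TPM in EC-RNA, 5229 and 4408 TPM in ref-RNA, and 120 and 130 TPM in mock-RNA. Both EC-RNA values were more than double either ref-RNA value, although the EC-RNA replicates themselves differed 2.08-fold, the widest replicate gap of any of the 6 genes in EC-RNA.

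For complex III, mt:Cyt-b had 33608 and 28205 TPM in EC-RNA, 28941 and 28039 TPM in ref-RNA, and 136 and 112 TPM in mock-RNA. Its EC-RNA and ref-RNA values overlapped, and all 4 lay far above mock-RNA. For complex V, mt:ATPase6 had 20857 and 22969 TPM in EC-RNA, 17562 and 15649 TPM in ref-RNA, and 36208 and 310 TPM in mock-RNA. The EC-RNA values of mt:ATPase6 both lay above its ref-RNA values, but the mock-RNA replicates differed 117-fold and enclosed all 4 tagged libraries. mt:ATPase8 was blank in both EC-RNA and both mock-RNA libraries and had 39.4 and 6682 TPM in ref-RNA. Its ref-RNA replicates thus differed 170-fold, although those of the other 5 genes differed by at most 1.19-fold. No fold change is given for mt:ATPase8, since a blank may be a missed as well as an absent transcript.

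**Figure D1:**
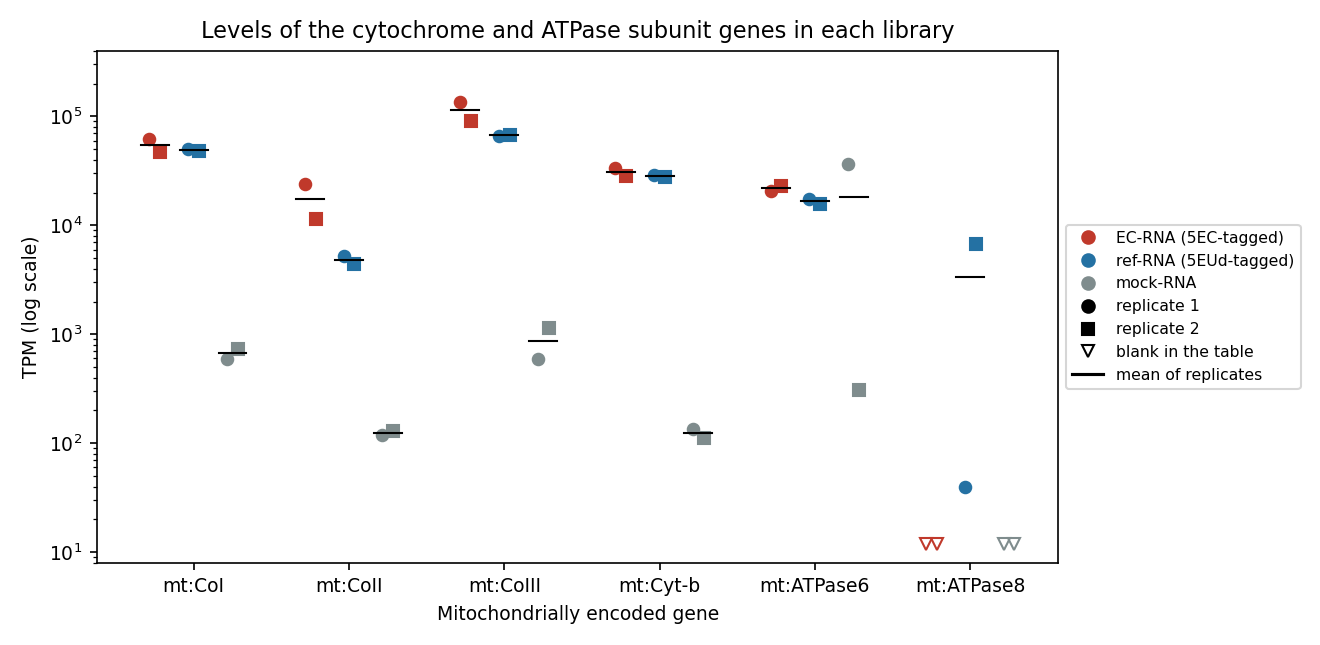
Level of each of the 6 genes in TPM (log scale) in every library, with circles for replicate 1, squares for replicate 2, open triangles at the foot for blanks and bars for the mean of the replicates; EC-RNA is red, ref-RNA blue and mock-RNA grey. mt:CoII is the gene with the widest step between EC-RNA (23740 and 11396 TPM) and ref-RNA (5229 and 4408 TPM), and mt:ATPase6 reaches 36208 TPM in mock-RNA replicate 1 only.

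The order of the levels was alike at the top in the tagged samples and different in mock-RNA. In EC-RNA the order of mean levels was mt:CoIII (113524 ± 32140 TPM, SD, n = 2), mt:CoI (54404 ± 9841 TPM), mt:Cyt-b (30907 ± 3821 TPM), mt:ATPase6 (21913 ± 1494 TPM) and mt:CoII (17568 ± 8728 TPM), followed by the blank mt:ATPase8. The first 4 lay apart from each other in both libraries, whereas the values of mt:ATPase6 and mt:CoII overlapped. In ref-RNA the order was mt:CoIII (66745 ± 1831 TPM, SD, n = 2), mt:CoI (49424 ± 1299 TPM), mt:Cyt-b (28490 ± 638 TPM), mt:ATPase6 (16606 ± 1352 TPM), mt:CoII (4819 ± 580 TPM) and mt:ATPase8 (3361 ± 4697 TPM), and of these neighbours only mt:CoII and mt:ATPase8 overlapped. In mock-RNA the values of mt:ATPase6, mt:CoIII and mt:CoI overlapped, mt:CoI lay above mt:CoII in both libraries, and mt:CoII and mt:Cyt-b overlapped.

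The comparison of EC-RNA with ref-RNA asks which transcripts were more abundant in the RNA tagged under the md neuron driver than in RNA tagged in all cells. For mt:CoII, mt:CoIII, mt:ATPase6, mt:CoI and mt:Cyt-b the mean level in EC-RNA was above that in ref-RNA, whereas 8876 of the 14534 transcripts tested were lower in both EC-RNA libraries than in both ref-RNA libraries. By mean TPM, EC-RNA over ref-RNA was 3.65 for mt:CoII, 1.70 for mt:CoIII, 1.32 for mt:ATPase6, 1.1 for mt:CoI and 1.08 for mt:Cyt-b. The EC-RNA values lay both above the ref-RNA values for 3 of the 6 genes, against 3.39% of the 14534 transcripts tested, and both below for 1 of them, the blank mt:ATPase8, against 61.1%. Summed by gene, the shares were 3.16% of all genes above and 69.1% below. These shares are not a matched background. A transcript or gene was kept at a mean of at least 1 TPM over both sample types together. Transcripts at 1 TPM or more numbered 13331 and 13925 in ref-RNA against 2911 and 3199 in EC-RNA. Many thus passed through ref-RNA and were likely to lie below, which also bears on the shares called.

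Differences were tested with limma on log2(TPM + 1), a scale that understates the change of low transcripts, and a transcript was called at a Benjamini-Hochberg adjusted p below 0.05 if it also differed 2-fold or more. None of the 6 transcripts was called higher or lower by limma, while 0.592% of all transcripts tested were called higher and 44.5% lower. At an unadjusted limma p below 0.05, 3 of the 6 were higher and 0 lower, against 140 higher and 7238 lower of all 14534 tested. mt:CoII differed by a log2 fold change of 1.78 (SE 0.43, 95% interval 0.45 to 3.10) with an adjusted p of 0.05004 by limma, just above the threshold. With values summed by gene in place of transcripts, where 0.199% of 9064 genes were called higher and 56.0% lower, mt:CoII was called (limma adjusted p = 0.0349) at the same fold change, and it was called as well without EC-RNA replicate 1 (1.25, limma adjusted p = 0.0470) and without EC-RNA replicate 2 (2.31, limma adjusted p = 0.0235). It was not called without ref-RNA replicate 1 (1.90, limma adjusted p = 0.256) or without ref-RNA replicate 2 (1.65, limma adjusted p = 0.300). mt:CoIII had a log2 fold change of 0.74 (SE 0.23, 95% interval 0.03 to 1.45) that did not pass (limma adjusted p = 0.0903). Without EC-RNA replicate 1 it was 0.44 (limma adjusted p = 0.0749), without EC-RNA replicate 2 it was called at 1.03 (limma adjusted p = 0.0434), and quantile normalization, under which it ranked first in all 4 libraries, left no difference.

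mt:ATPase6 passed the adjusted p (0.0414 by limma) with a log2 fold change of 0.40 (SE 0.09, 95% interval 0.13 to 0.68), below the 2-fold minimum. For mt:CoI the log2 fold change was 0.13 (SE 0.15, 95% interval −0.33 to 0.58, limma adjusted p = 0.524) and for mt:Cyt-b it was 0.11 (SE 0.10, 95% interval −0.20 to 0.43, limma adjusted p = 0.450). The sign of both was not stable. Without EC-RNA replicate 1 the log2 fold changes were −0.06 and −0.01. Under quantile normalization they were −0.40 (limma adjusted p = 0.00330), below the 2-fold minimum, and −0.05 (limma adjusted p = 0.664). By gene sums mt:CoI ranked 3 in both EC-RNA and 2 in both ref-RNA libraries, and this normalization gives equal ranks equal values. On TPM without further scaling, the intervals leave room for differences of up to about 0.58 for mt:CoI and 0.43 for mt:Cyt-b on the log2 scale. Median-of-ratios scaling, which shifts every transcript, gave 3.63 and 3.62, outside those intervals.

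The median log2 fold change of all 6 genes was 0.26, with the blanks of mt:ATPase8 read as 0, against a median of −2.34 over all transcripts tested. For the 5 genes with a value in both sample types it was 0.40, a set that leaves out the lowest of the 6. Abundant transcripts were closer to the members. The 85 non-mitochondrial transcripts that averaged 1000 TPM or more in ref-RNA had a median of −1.06, and the 23 that averaged 4000 TPM or more, a level that the same 5 genes exceeded, had a median of −0.80 with quartiles of −1.36 and −0.16. Of those 23, 0 were called higher and 3 lower. Both sets were picked by their level in ref-RNA, the denominator of the fold change, which can pull their medians down. The members were taken by name. The position of the whole distribution depended on scaling, pseudocount and filter. Median-of-ratios scaling raised EC-RNA against ref-RNA by 3.50 on the log2 scale before the pseudocount was added. It moved the median of the transcripts then tested to −1.42. The median was −4.62 with a pseudocount of 0.1, −0.664 with a pseudocount of 10 and −1.52 without a filter. The values of the same 5 genes hardly moved in those 3 runs, so the size of their gap to the median rests on these settings.

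**Figure D2:**
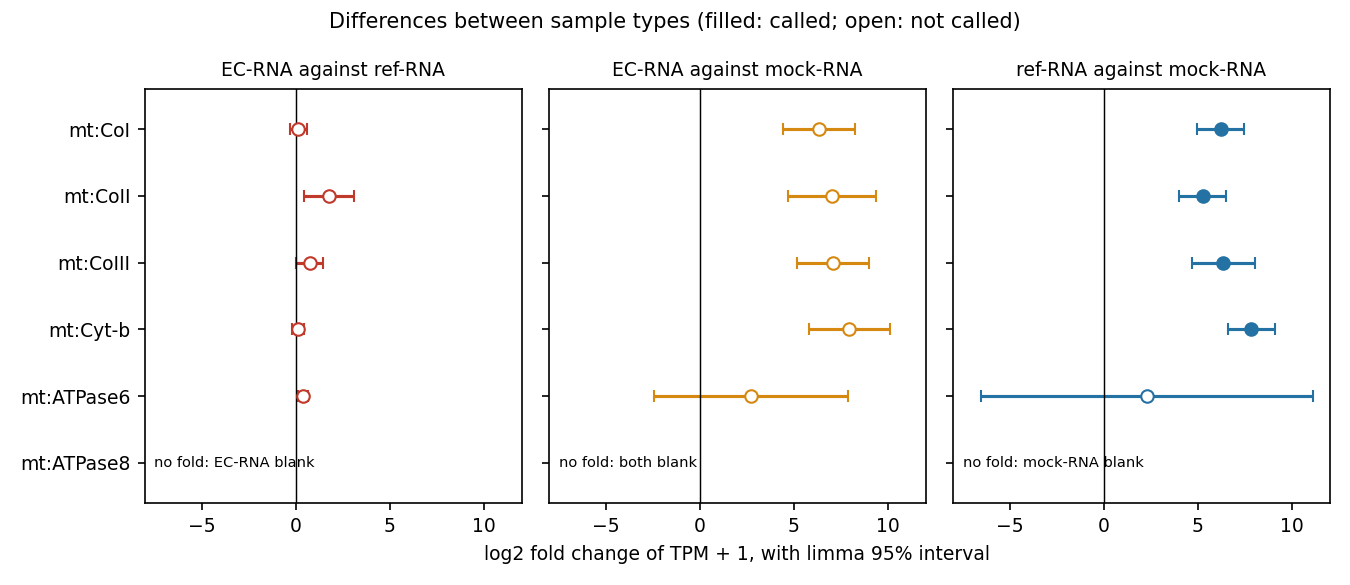
Log2 fold change of TPM + 1 (horizontal axis) in the 3 comparisons for the 5 genes with a fold change, mt:ATPase8 having none, with limma's 95% interval as bars and filled points for calls. The EC-RNA over ref-RNA values run from 0.11 to 1.78 with no call, the values over mock-RNA of mt:CoI, mt:CoII, mt:CoIII and mt:Cyt-b lie between 5.26 and 7.95, and mt:ATPase6 has intervals over mock-RNA that span 0.

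Mock-RNA gives the background that the purification picks up without a tag. 4 of the 6 genes stood far above it in both tagged sample types, these being mt:CoI, mt:CoII, mt:CoIII and mt:Cyt-b, with no overlap of either tagged sample type with mock-RNA. In mean TPM, EC-RNA exceeded mock-RNA 81.2-fold for mt:CoI, 141-fold for mt:CoII, 131-fold for mt:CoIII and 249-fold for mt:Cyt-b. mt:ATPase6 differed from this, with a ratio of 1.20 and overlapping values, and mt:ATPase8 was blank on both sides. EC-RNA lay wholly above mock-RNA for 4 of the 5 transcripts tested and wholly below for 0, against 28.8% above and 8.36% below among the 5502 transcripts in that comparison.

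None of the 5 was called in EC-RNA against mock-RNA by limma, as was true of all 5502 transcripts (0.0% called higher), of which 393 were higher and 107 lower at an unadjusted p below 0.05. The log2 fold changes were 6.34 (SE 0.78) for mt:CoI, 7.03 (SE 0.96) for mt:CoII, 7.08 (SE 0.79) for mt:CoIII and 7.95 (SE 0.88) for mt:Cyt-b, each with a limma adjusted p of 0.162, the smallest in the comparison. For mt:ATPase6 it was 2.71 (SE 2.11, limma adjusted p = 0.534). With values summed by gene, all of mt:CoI, mt:CoII, mt:CoIII and mt:Cyt-b were called higher (limma adjusted p = 0.0334 each), against 0.342% of 4096 genes, and 0 were called lower, against 0.0244%. The values of these single-transcript genes are the same in both tests, which differ in the other features fitted and adjusted with them.

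Against mock-RNA, ref-RNA was higher for the same genes, although the 2 comparisons share the mock-RNA libraries. The ref-RNA mean exceeded the mock-RNA mean 73.7-fold for mt:CoI, 38.6-fold for mt:CoII, 77.0-fold for mt:CoIII and 229-fold for mt:Cyt-b. All of these were called higher, with log2 fold changes of 6.21 (SE 0.39, limma adjusted p = 0.00232), 5.26 (SE 0.40, limma adjusted p = 0.00327), 6.34 (SE 0.53, limma adjusted p = 0.00407) and 7.84 (SE 0.40, limma adjusted p = 0.00164) in that order. That is 4 of 6 called higher and 0 lower, against 52.7% higher and 1.22% lower of the 14457 transcripts tested. The count itself is thus close to the background. The fold changes exceeded the median of 2.73 over all transcripts, but that median depended on the filter and the pseudocount. It was 4.69 at a minimum of 10 TPM. With a pseudocount of 0.1 it was 5.45, and mt:CoII, at 5.27, lay below it. No median of transcripts of like abundance was taken for this comparison. The ref-RNA libraries lay wholly above mock-RNA for 5 of the 6 and wholly below for 0, against 71.9% and 2.1% of transcripts.

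mt:ATPase6 was not called against mock-RNA in ref-RNA either (log2 fold change 2.30, SE 2.80, limma adjusted p = 0.496). Without mock-RNA replicate 1, which held 36208 TPM of it, the ref-RNA value was 5.74 (limma adjusted p = 0.0254), and without mock-RNA replicate 2 it was −1.13. For EC-RNA the value without mock-RNA replicate 2 was −0.73. The direction of mt:ATPase6 against background was thus set by single mock-RNA libraries.

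Shares within the mitochondrial messages do not depend on how much of a library is mitochondrial. Of the summed TPM of the 13 mitochondrial protein genes, the 6 genes made up 70.9% and 64.6% in EC-RNA, 69.2% and 68.6% in ref-RNA, and 98.4% and 17.6% in mock-RNA. The balance among them differed more than their sum. mt:CoII took 6.10% and 3.67% in EC-RNA against 2.16% and 1.77% in ref-RNA, and mt:CoIII took 35.0% and 29.2% against 27.0% and 27.3%. mt:CoI took 15.8% and 15.3% in EC-RNA against 20.8% and 19.4% in ref-RNA, and mt:Cyt-b took 8.63% and 9.08% against 12.0% and 11.2%. Between EC-RNA and ref-RNA the shares of these 4 genes did not overlap, those of mt:CoII and mt:CoIII being higher in EC-RNA and those of mt:CoI and mt:Cyt-b lower. The same held for most mitochondrial genes, since 11 of the 13 shares did not overlap, 4 being higher and 7 lower in EC-RNA.

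The share of mt:ATPase6 overlapped, with 5.36% and 7.39% in EC-RNA and 7.25% and 6.27% in ref-RNA. As log2 ratios of shares, EC-RNA over ref-RNA was 1.31 for mt:CoII, 0.24 for mt:CoIII, −0.09 for mt:ATPase6, −0.37 for mt:CoI and −0.39 for mt:Cyt-b. With 2 libraries against 2, an exact two-sided permutation test cannot give a p below 0.333, so these shares were not tested. In mock-RNA single genes filled the mitochondrial messages, namely mt:ATPase6 with 94.6% in replicate 1 and mt:ND5 with 77.2% in replicate 2.

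**Figure D3:**
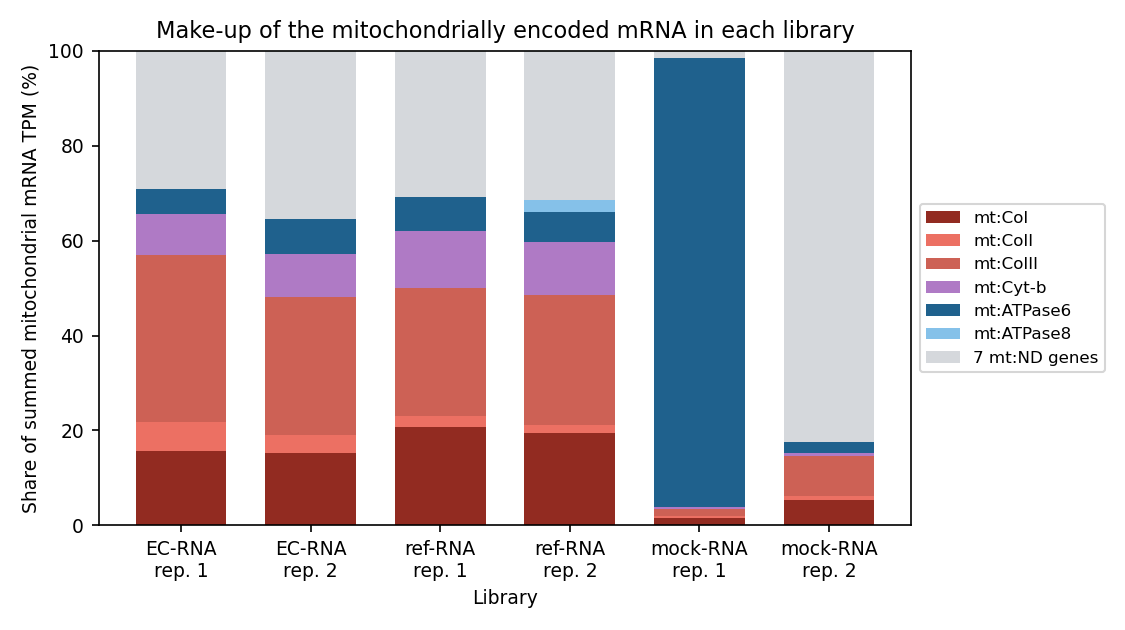
Share of each gene in the summed TPM of the 13 mitochondrial protein genes (vertical axis, percent) in each of the 6 libraries. mt:CoIII takes the most in each of the 4 tagged libraries (35.0% and 29.2% in EC-RNA, 27.0% and 27.3% in ref-RNA), and the mock-RNA libraries are dominated by mt:ATPase6 (94.6%) and by mt:ND5 (77.2%).

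Set against mt:CoI of the same library, mt:CoII stood at 0.387 and 0.240 in EC-RNA, 0.104 and 0.0909 in ref-RNA, and 0.199 and 0.176 in mock-RNA. The mt:CoIII to mt:CoI ratio was 2.22 and 1.91 in EC-RNA, 1.30 and 1.40 in ref-RNA, and 0.985 and 1.54 in mock-RNA. Both ratios were thus higher in both EC-RNA libraries than in any other library. The mt:Cyt-b to mt:CoI ratio was 0.548 and 0.594 in EC-RNA and 0.575 and 0.578 in ref-RNA, where the groups overlapped, and 0.227 and 0.152 in mock-RNA.

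The other 7 mitochondrial protein genes encode subunits of complex I, the NADH dehydrogenase that feeds electrons into the chain. Where both sample types had values, their log2 fold changes of EC-RNA over ref-RNA ran from −5.84 to 3.07. Those of mt:CoI, mt:CoII, mt:CoIII, mt:Cyt-b and mt:ATPase6 ran from 0.11 to 1.78. These ranges leave out mt:ND4L and mt:ATPase8, which were both blank in EC-RNA. Of the 7 genes, limma called 1 higher and 2 lower, mt:ND4L among the latter, against 0.592% and 44.5% of all transcripts tested. The highest in level in the tagged libraries was mt:ND1, with 79107 and 64733 TPM in EC-RNA, 35709 and 40119 TPM in ref-RNA and 157 and 285 TPM in mock-RNA. Its log2 fold change of 0.92 (limma adjusted p = 0.0150) was under 2-fold. The lowest in mean ref-RNA level, mt:ND4L, was blank in both EC-RNA libraries and had 81.8 and 41.6 TPM in ref-RNA. Its call as lower rests on blanks read as 0. mt:ND2 had 0.678 and 0.996 TPM in EC-RNA against 87.9 and 122 TPM in ref-RNA (log2 fold change −5.84, SE 0.61, limma adjusted p = 0.00835), and mt:ND6 had 1963 and 1360 TPM in EC-RNA against 174 and 216 TPM in ref-RNA (log2 fold change 3.07, SE 0.55, limma adjusted p = 0.0242).

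Neighbours on the same strand differed widely in level. mt:ND2 is the protein gene before mt:CoI, and mt:ND6 the one directly before mt:Cyt-b, and both were far below their neighbour in every tagged library. mt:ATPase8, which overlaps mt:ATPase6, was also below it in every tagged library, with its EC-RNA blanks read as 0. In ref-RNA mt:ATPase6 had 17562 and 15649 TPM, and mt:ATPase8 had 39.4 and 6682 TPM. The level of mt:ATPase8, 162 bases long and 170-fold apart between ref-RNA replicates, is uncertain, and so is this gap. The part of its length in the gap was not tested. Summed over both, the complex V genes had 20857 and 22969 TPM in EC-RNA and 17601 and 22331 TPM in ref-RNA, where the groups overlapped, unlike for mt:ATPase6 alone.

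**Figure D4:**
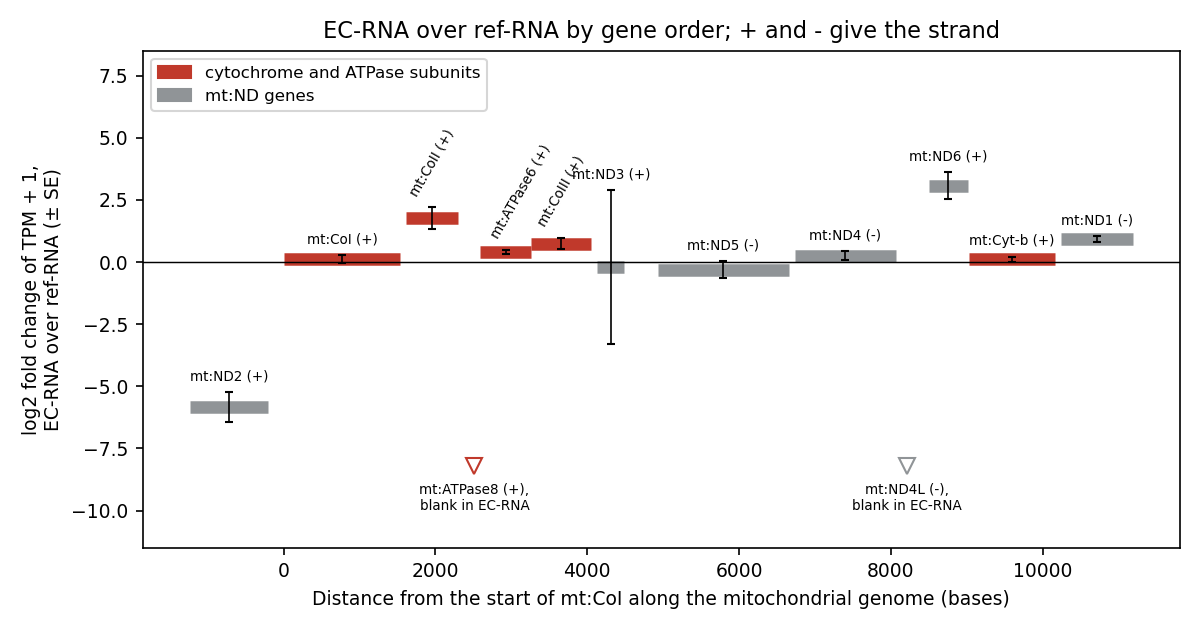
Log2 fold change of TPM + 1, EC-RNA over ref-RNA (vertical axis, with bars for ± SE), of the 13 mitochondrial protein genes against distance from the start of mt:CoI in bases. The 5 cytochrome and ATPase genes with a value in EC-RNA lie between 0.11 and 1.78, whereas mt:ND2 lies at −5.84 and mt:ND6 at 3.07. Open triangles mark mt:ATPase8 and mt:ND4L, which were blank in EC-RNA and for which no fold is drawn.

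The nuclear genes for subunits of the same complexes were called lower in EC-RNA against ref-RNA at about the background share of all genes. With values summed by gene, 0 were called higher, against 0.199% of all genes tested, and 5 of 9 tested lower for complex III, 5 of 10 for complex IV and 6 of 13 for complex V, against 56.0% of all genes tested. Their median log2 fold changes were −4.47, −5.35 and −2.43, against −2.59 over all genes, some of the members being blank in EC-RNA. The genes called lower for complex III were RFeSP, its iron-sulfur protein, UQCR-C1, UQCR-14, UQCR-Q and ox, and those for complex IV were COX4, COX5A, cype, COX7C and COX8. Of these, ox, cype and COX7C were blank in both EC-RNA libraries.

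The most abundant nuclear partners in ref-RNA varied widely between the EC-RNA replicates. UQCR-11 of complex III had 16.3 and 480 TPM in EC-RNA against 863 and 700 TPM in ref-RNA, and levy of complex IV had 8.53 and 144 TPM against 472 and 551 TPM. ATPsynC, the ring subunit of complex V, had 554 and 2463 TPM in EC-RNA against 3851 and 3296 TPM in ref-RNA. Cyt-c-p, a cytochrome c, which carries electrons from complex III to complex IV, had 10.3 and 1765 TPM in EC-RNA against 863 and 803 TPM in ref-RNA. None of these was called. Of the 2 cytochrome c genes, Cyt-c-d was called lower, being blank in EC-RNA with 4.92 and 3.45 TPM in ref-RNA.

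Summed by complex, the mitochondrial messages outweighed the nuclear ones most in EC-RNA. The ratio of summed mitochondrial to summed nuclear TPM was 123 and 740 in EC-RNA, 47.1 and 47.4 in ref-RNA and 4.45 and 5.77 in mock-RNA for complex IV. For complex III it was 945 and 20.6 in EC-RNA, 14.1 and 15.8 in ref-RNA and 0.846 and 0.476 in mock-RNA, and for complex V it was 7.87 and 4.59 in EC-RNA, 2.05 and 2.89 in ref-RNA and 0.749 and 0.253 in mock-RNA. In all 3 complexes both EC-RNA ratios lay above both ref-RNA ratios, which lay above both mock-RNA ratios, but the EC-RNA replicates differed by far more than the ref-RNA replicates. Of all genes tested, 69.1% were lower in both EC-RNA libraries than in both ref-RNA libraries, and ratios to other nuclear genes were not tested. Single genes carried some nuclear sums. COX7A had 1101 of 1795 TPM for complex IV in EC-RNA replicate 1, and levy 144 of 202 TPM in replicate 2. ATPsynD had 37495 of 48317 TPM for complex V in mock-RNA replicate 1.

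The genes whose profile over the 6 libraries was most like the mean profile of the 6 genes were looked for among 8526 other genes, as the smallest Euclidean distance between centred log2(TPM + 1) values. They were 28SrRNA-Psi:CR45848 (distance 1.08), His3.3B (1.18), Cyp4g1 (1.24), Pka-C1 (1.30) and Ank (1.34). The 6 genes did not form a tight group around that mean, since mt:CoI lay at 1.80, mt:CoIII at 2.61, mt:Cyt-b at 2.95, mt:CoII at 3.11, mt:ATPase6 at 5.80 and mt:ATPase8 at 9.29. Around the mean of mt:CoI, mt:CoII, mt:CoIII and mt:Cyt-b alone, a choice made after seeing the data, the nearest genes were Dsp1 (0.489), St3 (0.557), mt:ND4 (0.571), CG9132 (0.665) and Akt1 (0.720), and the 4 genes themselves lay between 0.492 and 1.502.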

How the data were processed

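Larval carcass RNA was tagged, biotinylated, captured and sequenced after ribosomal RNA depletion, with duplicate purifications of each replicate joined in a library. Per the labels and the study's methods, the authors trimmed reads with Trimmomatic, pseudo-aligned them to BDGP6 transcripts with kallisto, and deposited TPM per transcript and library. The table holds 30828 transcripts, no written 0 and 132111 blank cells, which were read as 0. The authors' DESeq2 test on reads was not repeated.

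Each comparison used the 4 libraries of its sample types. Transcripts averaging at least 1 TPM over them were kept, and log2(TPM + 1) was fitted in limma 3.58.1 (R 4.3.3) with a trended spread and no replicate term. The fit was run on data simulated with known changes, both groups being drawn from a single sample type. Those data did not copy the unequal blanks of the sample types, so the run cannot decide how the fit handles them. Gene values are sums over transcripts. Further values came from Python 3.11.15 with pandas 2.3.3 and NumPy 2.4.6. p-values cover the spread between these samples only. Positions come from a newer release of the BDGP6 annotation and were matched by gene.

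The genes named are the 6 members, the highest and lowest mt:ND genes, for each list the most abundant gene in ref-RNA and any called where 5 or fewer were, and the 5 genes nearest in profile. mt:ND2 and mt:ND6 were named after their values were seen, and so were genes in the closing section. The members, the lists of nuclear partners and the marker lists were chosen with earlier results of these data known, and 1 gene of the lists, LRPPRC2, was not matched. Alternatives were other filters, pseudocounts of 0.1 and 10, quantile and median-of-ratios scaling, rescaling without mitochondrial transcripts, sums by gene, a fit of the 3 sample types together, a replicate block and leaving out each replicate.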

Additional observations from a re-analysis of the deposited data

How the results depend on the processing

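In EC-RNA against ref-RNA, 86 transcripts were called higher and 6472 lower. The counts were 195 and 2332 with median-of-ratios scaling, 0 and 0 with quantile normalization, which moved the median of all transcripts to 0.12, and 18 higher with gene sums. Lower calls numbered 2219 at a minimum of 10 TPM and 3392 with a pseudocount of 10. Leaving out 1 library gave 13 to 756 higher and 4232 to 7333 lower. Of the 6 members, 0 were called higher, against 5 with median-of-ratios scaling, which shifts every transcript, and 1, mt:CoII, with a pseudocount of 0.1, gene sums, a fit of the 3 sample types together or the replicate block, and 0 to 2 without 1 library. With a pseudocount of 0.1, 1 was called lower, and 0 to 1 without 1 library. mt:CoII kept its direction in every alternative, with log2 fold changes of 1.25 to 5.28 and limma adjusted p-values of 0.0235 to 0.436. Under quantile normalization mt:CoI was at −0.40 and mt:Cyt-b at −0.0485. Without 1 library mt:CoI ranged over −0.0587 to 0.31 and mt:Cyt-b over −0.0143 to 0.24, lowest without EC-RNA replicate 1. In EC-RNA against mock-RNA, 0 transcripts were called, against 4 higher and 1 lower with a pseudocount of 10, 5 and 2 with quantile normalization, 14 and 1 with gene sums, 66 and 8 with the 3 sample types fitted together, 60 and 21 with the replicate block, and 0 to 1532 and 0 to 99 without 1 library. Members called higher were 0, against 3 with a pseudocount of 10, 2 with quantile normalization, 4 with gene sums, the 3-type fit or the replicate block, and 0 to 3 without 1 library. In ref-RNA against mock-RNA, 7620 were called higher and 176 lower, against 3054 and 93 at a minimum of 10 TPM, 4677 and 96 with a pseudocount of 10, 777 higher with quantile normalization (221 lower), 270 lower with median-of-ratios scaling, 66 lower with gene sums, and 4474 to 9111 and 60 to 191 without 1 library. Members called higher were 4, against 1 without a filter and 4 to 5 without 1 library. Without 1 library mt:ATPase6 ranged over −0.73 to 6.14 in EC-RNA and −1.13 to 5.74 in ref-RNA against mock-RNA, lowest without mock-RNA replicate 2 and highest without replicate 1. The cause of these changes was not tested. The log2 ratios of shares moved by less than the replicate spread in each alternative run. Leaving out 1 of 2 replicates can hardly move a ratio beyond that spread, so those runs could not decide how stable the ratios are. Only the ratio of mt:ATPase6 changed sign, from −0.09 to 0.13 without EC-RNA replicate 1 and 0.02 without ref-RNA replicate 1. No other mitochondrial transcript had a value, so a denominator of all mitochondrial transcripts could not be tried. Same-numbered libraries did not deviate together (r of −0.00205 to −9.63e-06 over 2 pairs), so their numbers were not taken to pair them. A library left alone in its sample type was assumed to vary like the others.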

Other observations

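Among nuclear genes that serve the mitochondrial messages rather than the complexes themselves, most of those tested were called lower in EC-RNA than in ref-RNA, with exceptions. Of 15 genes for mitochondrial DNA maintenance, transcription and RNA stability in the table, 13 were tested as gene sums in EC-RNA against ref-RNA, 0 were called higher and 11 lower, and the median log2 fold change was −3.39 against −2.59 over all genes, 56.0% of which were called lower. The most abundant in ref-RNA, bsf, which encodes an RNA-binding protein that acts on mitochondrial messages, had 0.658 and 0.0484 TPM in EC-RNA against 28.5 and 28.4 TPM in ref-RNA. tam, the catalytic subunit of the mitochondrial DNA polymerase, had 0.161 and 46.6 TPM in EC-RNA against 1.47 and 4.17 TPM in ref-RNA, and 3 of the 15 genes overlapped between the sample types. TFAM, which packages mitochondrial DNA, was blank in both EC-RNA libraries and had 7.55 and 9.87 TPM in ref-RNA. Of 7 genes for assembly of cytochrome c oxidase, 6 were tested, 0 were called higher and 5 lower (Scox, COX10, COX11, COX17 and Ccdc56). The most abundant of these, COX17, a copper chaperone, had 1.74 and 0 TPM in EC-RNA against 47.2 and 37.8 TPM in ref-RNA. Ccdc56 and mtTFB1 had identical values in all 6 libraries and count in both lists.

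The mock-RNA library with 36208 TPM of mt:ATPase6 also held 37495 TPM of the nuclear complex V gene ATPsynD, which was blank in the other mock-RNA library and had 231 and 202 TPM in ref-RNA, and 10313 TPM of ATPsynC, against 443 TPM in the other. The other mock-RNA library held 10705 TPM of mt:ND5, against 161 TPM in the first. Their source was not tested.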
